A study of Mus musculus with 10 samples.

Results

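The vacuolar proton pump (V-ATPase) and the lysosomal machinery that senses nutrients were examined in RNA seq libraries that the study prepared from microglia. The 3 groups were WT, APP/PS1 and APP/PS1+N-AS. Members were chosen by gene symbol, with earlier results of these data known. They were all symbols that begin with Atp6v0, Atp6v1 or Atp6ap (26 symbols) and 15 named genes, namely Tfeb, Tfe3, Mtor, Rptor, Rraga, Rragc, Rragd, Lamtor1 to Lamtor5, Slc38a9, Mcoln1 and Flcn. This gave 41 members of 24421 symbols, of which 39 passed the filter on low counts and were tested among 18727 genes. Atp6v1e2 and Atp6v1g3, which encode rarely used isoforms of the E and G subunits, had 0 to 6 and 0 to 10 reads in a library and were not tested.

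The V-ATPase pumps protons into lysosomes and other acidic organelles. Its cytosolic V1 sector hydrolyses ATP, its V0 sector conducts protons through the membrane, and stalk and stator subunits join both sectors. At the lysosomal surface the pump works with the Ragulator complex (Lamtor1 to Lamtor5), which anchors the Rag GTPases that recruit mTORC1 when amino acids are plentiful. TFEB and TFE3 are held in the cytoplasm under these conditions and otherwise enter the nucleus, where they switch on lysosomal genes. Microglia depend on this acidic compartment to break down what they engulf, amyloid-β included.

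The study isolated cortical cells of 9-month-old mice by papain dissociation and an Optiprep density gradient, without a sorting step, and each library held RNA of a pair of mice. The WT group had 3 libraries. The APP/PS1 group had 4 libraries of mice that overexpress human APP with the Swedish mutation and a mutant presenilin-1. The promoter that drives the transgenes is not given in the sources used here. The APP/PS1+N-AS group had 3 libraries of the same transgenic mice, injected subcutaneously every day with N-AS (N-acetyl sphingosine) at 30 mg/kg for 8 weeks from 7 months of age. The labels describe no injection for the APP/PS1 group, and the paper names vehicle-injected APP/PS1 mice as its controls. Levels are given as CPM, the counts of a gene relative to the library size, scaled by the TMM method, and differences as log2 fold changes with their standard errors (SE) from edgeR's quasi-likelihood test. Total counts were 8805804 to 19432075 per library.

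Markers of several cell types were present in the libraries. All 16 microglial markers were detected in every library, and their summed level was lowest in WT (897 to 1319 CPM), highest in APP/PS1 (2927 to 3716) and between them with N-AS (1772 to 2333). The listed genes did not move alike. Before scaling to library size, Trem2 had 102 to 344 reads in WT and 1214 to 3567 in APP/PS1. P2ry12 had 520 to 1878 and 977 to 1754 reads, with overlap. The sum is therefore not a count of microglia. The sum of 10 neuronal markers was 3245, 3271 and 6429 CPM in WT 1, 2 and 3, 3326 to 4082 in APP/PS1 and 3434 to 4327 in APP/PS1+N-AS. All 10 markers of each of the oligodendrocyte, astrocyte and endothelial lists were detected in every library as well. The sum of 5 choroid plexus markers was 10.2 CPM in WT 3 and 10.3 in APP/PS1+N-AS 3, against 406 to 1212 in all other libraries, and 6 neutrophil markers summed to 117 CPM in APP/PS1 3 and to 4.38 to 19.5 elsewhere. Methods describe male mice only, yet Xist was at 453 to 579 CPM in the 4 APP/PS1 libraries and in APP/PS1+N-AS 1 and 2 at 463 and 469, while WT 1, 2 and 3 and APP/PS1+N-AS 3 held 1.59 to 4.40. The sum of 4 Y-linked genes was 177 to 197 CPM in WT and 176 in APP/PS1+N-AS 3, and 0.619 to 57.0 in the other libraries. The microglial sum, Xist and the Y-linked sum did not overlap between APP/PS1 and WT, so genotype, cell composition and sex-linked transcripts cannot be told apart in that comparison. APP/PS1+N-AS 3 stood with WT for Xist and the Y-linked genes and apart from the other transgenic libraries, so that the split also runs through the N-AS group. In such bulk libraries, fewer cells of a type and less RNA per cell cannot be told apart either.

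Levels differed widely among the members. Per kilobase of exon and over all 10 libraries, the V0 membrane subunit Atp6v0a1 had the highest mean of any tested protein-coding member (40.3 CPM per kb). It was followed by Atp6v1f and Atp6v1e1 of the stalk and stator (27.3 and 24.3), the accessory subunit Atp6ap1 (23.5) and the proton-binding ring subunit Atp6v0c (22.5). Both ubiquitous subunits of the catalytic hexamer were at similar levels, with Atp6v1b2 at 17.5 and Atp6v1a at 16.8 CPM per kb. Isoforms known from kidney or other epithelia were near the lower end, with Atp6v0a4 at 0.479, Atp6v1b1 at 0.317 and Atp6v1c2 at 0.768 CPM per kb. Atp6v0d2, an isoform known from osteoclasts and macrophages, was at 2.82 CPM per kb, against 22 for its ubiquitous paralog Atp6v0d1.

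Nutrient-sensing members lay mostly below the core pump on the same scale. The Rag GTPases and folliculin lay between 9.66 and 14.7 CPM per kb, with Rragd highest. The 5 Ragulator genes lay between 3.5 and 10.7, with Lamtor5 highest. Mtor, the kinase of mTORC1, was at 13.5 and its scaffold Rptor at 4.79. The lysosomal arginine sensor Slc38a9 and the calcium channel Mcoln1 were at 1.64 and 4.95. Tfe3 and Tfeb were at 2.13 and 1.98 CPM per kb. The pseudogene Atp6v0c-ps2 reached 167 CPM per kb, but 88.0% of its 416 windows of 50 bases also occur in Atp6v0c, and its count was 0.978 to 1.05 times that of Atp6v0c in every library, so reads of the gene and the pseudogene were not separated by the authors' counting.

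Some members carry the E-box that MiT/TFE factors bind. RefSeq promoter windows (250 bases before to 50 after the annotated start, GRCm38.p6) were matched for 32 of the 41 members, with 38 windows because some genes have several starts. The E-box core CACGTG, a palindrome and so the same on both strands, was found in the windows of 8 members (25.0%), namely Atp6v0b, Atp6v0d1, Atp6v0e, Atp6v1a, Lamtor1, Lamtor4, Mcoln1 and Rragc, against 7.15% of 32851 windows in all. The longer palindrome TCACGTGA, which contains that core and belongs to the element known from coordinated lysosomal genes, was found in 4 of them (12.5%), Atp6v0d1, Atp6v0e, Atp6v1a and Mcoln1, against 0.974% of windows. Shares of members count genes with a match in any of their windows, and shares of all promoters count windows, so they are not in like units. A match is a description of the letters and not of binding. The stretches below belong to the members that hold the core and either had an unadjusted p under 0.05 or did not overlap between groups in a comparison that follows (Atp6v1a and Atp6v0d1 only without WT 3, a library described further on), with the motif in capitals, 5′ to 3′ on the gene's strand.
Atp6v0e (chr17:26676382-26676421, plus strand, motif 4 bases past the start): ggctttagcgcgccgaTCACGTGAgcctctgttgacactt
Lamtor1 (chr7:101905752-101905791, plus strand, motif 68 bases before the start): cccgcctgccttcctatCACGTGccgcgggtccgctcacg
Lamtor4 (chr5:138255345-138255384, plus strand, motif 120 bases before the start): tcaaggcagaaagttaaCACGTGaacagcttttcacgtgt
Rragc (chr4:123917304-123917343, plus strand, motif 112 bases before the start): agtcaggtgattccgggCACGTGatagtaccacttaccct
Mcoln1 (chr8:3500457-3500496, plus strand, motif 45 bases before the start): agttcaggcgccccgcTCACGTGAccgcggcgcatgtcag
Atp6v1a (chr16:44139368-44139407, minus strand, motif 131 bases before the start): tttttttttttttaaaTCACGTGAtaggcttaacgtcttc
Atp6v0d1 (chr8:105566045-105566084, minus strand, motif 3 bases before the start): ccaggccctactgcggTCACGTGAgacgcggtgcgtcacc

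Lamtor4 has another copy of the core 104 bases and Mcoln1 another 71 bases before the start. For Atp6v1a the window belongs to a start inside the gene, which reaches chr16:44139702 on the minus strand. Neither Tfe3 nor Atp6v1b1 holds either motif in its window. For 9 members no window was matched, among them Atp6v1g1.

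APP/PS1 libraries were then compared with WT libraries. Cell composition and sex-linked transcripts differed along with genotype here, as given above. With all libraries, most of the pump and its sensing machinery differed little between the groups. The e1 subunit gene Atp6v0e, a small membrane subunit of V0, was higher in APP/PS1. It was the only member with an adjusted p-value under 0.05 by edgeR's quasi-likelihood test, against 3.47% of all genes tested. At an unadjusted p under 0.05, 5 members were higher (Atp6v0e, Tfe3, Atp6v1g1, Lamtor1 and Rragc) and 2 were lower (Atp6v1b1 and Mtor), against 8.3% higher and 8.9% lower of all genes. The median log2 fold change of the 39 members was −0.02, against −0.07 for all genes tested, and 26 members lay within 0.3 of 0. Groups did not overlap for 6 members, 4 higher and 2 lower, against 14.9% of all genes.

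Atp6v0e was at 12, 12.9 and 12.1 CPM in WT 1, 2 and 3, and at 15.4, 17, 20.4 and 19.8 CPM in APP/PS1 1 to 4. Each APP/PS1 library was above each WT library. The log2 fold change was 0.55 (SE 0.13, adjusted p = 0.0488), from 101 to 415 reads per library. The same direction was seen within library numbers 1 to 6 (0.37) and within 7 to 10 (0.72), the numbers that the labels give. The summed microglial markers followed the same order of groups (897 to 1319, 1772 to 2333 and 2927 to 3716 CPM in WT, N-AS and APP/PS1), and their part in the level of Atp6v0e was not tested. The adjusted p-value was close to the threshold, and it ranged from 0.0361 to 0.143 when each library was left out in turn, with 0.0361 without APP/PS1 1 and values above 0.05 without any other library.

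Tfe3, an X-linked gene of the MiT/TFE factors, was at 15.1, 17 and 15.4 CPM in WT and at 20.3, 23.7, 22.5 and 25.6 in APP/PS1. These groups did not overlap either. Its log2 fold change was 0.54 (SE 0.13, adjusted p = 0.0528), so that it missed the adjusted threshold. Its relative Tfeb was at 14.0, 13.7 and 8.49 CPM in WT and at 10.1 to 11.1 in APP/PS1. WT 3 lay below and WT 1 and 2 above all APP/PS1 libraries, and the log2 fold change of Tfeb was −0.18 (SE 0.20, adjusted p = 0.704).

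Of the Ragulator, Lamtor1, the membrane-anchored scaffold of the complex, was at 9.15, 12.3 and 15.4 CPM in WT and at 16.6, 18.6, 19.1 and 18.2 in APP/PS1. All APP/PS1 libraries were above all WT libraries, with a log2 fold change of 0.55 (SE 0.18, adjusted p = 0.141). Lamtor1 overlaps Lrrc51 and Tomt, which lie on the opposite strand, and whether the counting used strand is not given in the sources used here. The other 4 Ragulator genes had log2 fold changes of −0.16 to 0.33, and Lamtor4 was the highest of them (0.33, SE 0.15, adjusted p = 0.307). Rragc, one of the Rag GTPases, was at 21.3, 26.1 and 36.7 CPM in WT and at 35.2, 32.4, 42.2 and 41.5 in APP/PS1. The groups overlapped through WT 3, and the log2 fold change was 0.43 (SE 0.18, adjusted p = 0.269), with an unadjusted p under 0.05 in 6 of the 10 fits that left out a library. Among the Rag genes the highest mean CPM was that of Rragd, whose log2 fold change was −0.16 (SE 0.18, adjusted p = 0.702).

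Atp6v1g1, the ubiquitous G subunit of the stator, was at 19.1, 18.0 and 24.2 CPM in WT and at 26.9, 26.5, 29.4 and 29.6 in APP/PS1. The groups did not overlap (log2 fold change 0.46, SE 0.14, adjusted p = 0.11). Mtor was at 129, 146 and 169 CPM in WT and at 121, 129, 114 and 119 in APP/PS1. Every APP/PS1 library was below every WT library, with APP/PS1 2 close to WT 1, and the log2 fold change was −0.29 (SE 0.13, adjusted p = 0.263). Over the 10 fits that each left out a library, the log2 fold change of Mtor was −0.38 to −0.18, and its unadjusted p stayed under 0.05 in 1 of them, without WT 1. Atp6v1b1, the B subunit known from acid-secreting epithelia, was at 4.99, 1.92 and 0.964 CPM in WT and at 0.777, 0.413, 0.546 and 0.809 in APP/PS1, which is 5 to 42 reads in any library. The log2 fold change was −1.98 (SE 0.56, adjusted p = 0.085). WT 1 was far above the others, and without it the log2 fold change was −1.15 (adjusted p = 0.264). No other member had an unadjusted p under 0.05. The accessory subunits had log2 fold changes of −0.54 (Atp6ap1l) to 0.09 (Atp6ap1), and those of the lysosomal proteins Slc38a9 and Mcoln1 were 0.10 (SE 0.14) and −0.11 (SE 0.15). The V0 genes ranged from −0.48 (Atp6v0e2) to 0.96 (Atp6v0d2). Atp6v0d2 was at 9.51, 4.77 and 2.07 CPM in WT and at 10.4, 8.84, 5.94 and 15.6 in APP/PS1, so that the groups overlapped (SE 0.48, adjusted p = 0.35).

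**Figure D1:**
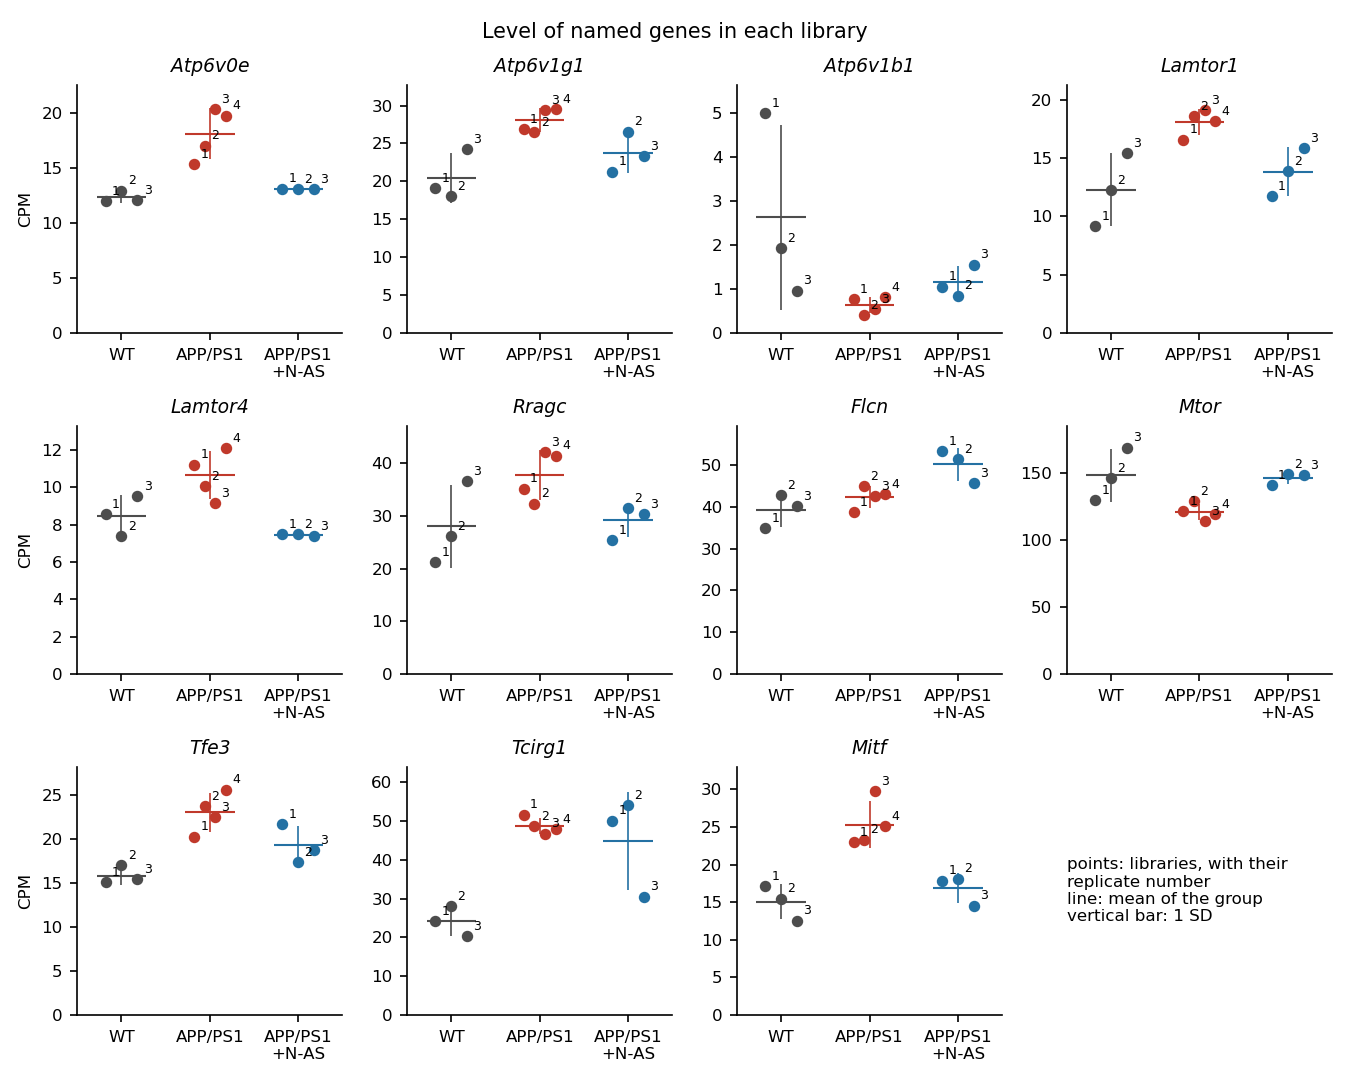
Level of the named members and of Tcirg1 and Mitf in CPM (vertical axis, from 0) in each library of the 3 groups, with points for libraries marked by replicate number, a horizontal line for the group mean and a vertical bar for 1 SD. Atp6v0e lies at 12 to 12.9 CPM in WT and at 15.4 to 20.4 in APP/PS1, and the N-AS libraries at 13 to 13.1 sit between them.

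WT 3 stood apart from the other WT libraries in the core pump. Of the 39 members tested, 18 were at least 1.5 times and 13 at least 2 times as high in WT 3 as in the mean of WT 1 and 2, while 12.9% of all genes tested reached 1.5 times and 4.41% reached 2 times. The median ratio was 1.43 for the members and 0.91 for all genes. Atp6v1b2 showed the largest ratio (3.53), with 53.7, 54.5 and 191 CPM in WT 1, 2 and 3. Atp6v1a, the subunit that binds and hydrolyses ATP, was at 67.5, 68.9 and 194 CPM (ratio 2.85). The stalk and stator genes had a median ratio of 2.43, and Atp6v1c1 was at 45.6, 49.4 and 148 CPM (ratio 3.11). In V0, Atp6v0c was at 50.5, 55.7 and 126 CPM and Atp6v0a1 at 187, 229 and 430 CPM.

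The split was not of like size over the whole set. No gene of the Ragulator (0 of 5), mTORC1 (0 of 2) or the factors Tfeb and Tfe3 (0 of 2) reached 1.5 times. The 5 Ragulator genes lay at 1.2 to 1.44 times and Mtor and Rptor at 1.23 and 1.18. All of these were above the median of all genes (0.91). Of the Rag GTPases and folliculin, 2 of 4 reached 1.5 times. Tfeb and Tfe3 were at 0.613 and 0.961 times, and Atp6v0e and Atp6v0a2 at 0.97 and 0.953 times. Atp6v0d2 and Atp6v1b1 went the other way, with ratios of 0.29 and 0.279. WT 3 also had 1.97 times the summed neuronal markers, 1.35 times the microglial, 0.349 times the oligodendrocyte and 0.41 times the endothelial markers of WT 1 and 2. Whether these shifts have a part in the levels of the pump in WT 3 was not tested.

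**Figure D2:**
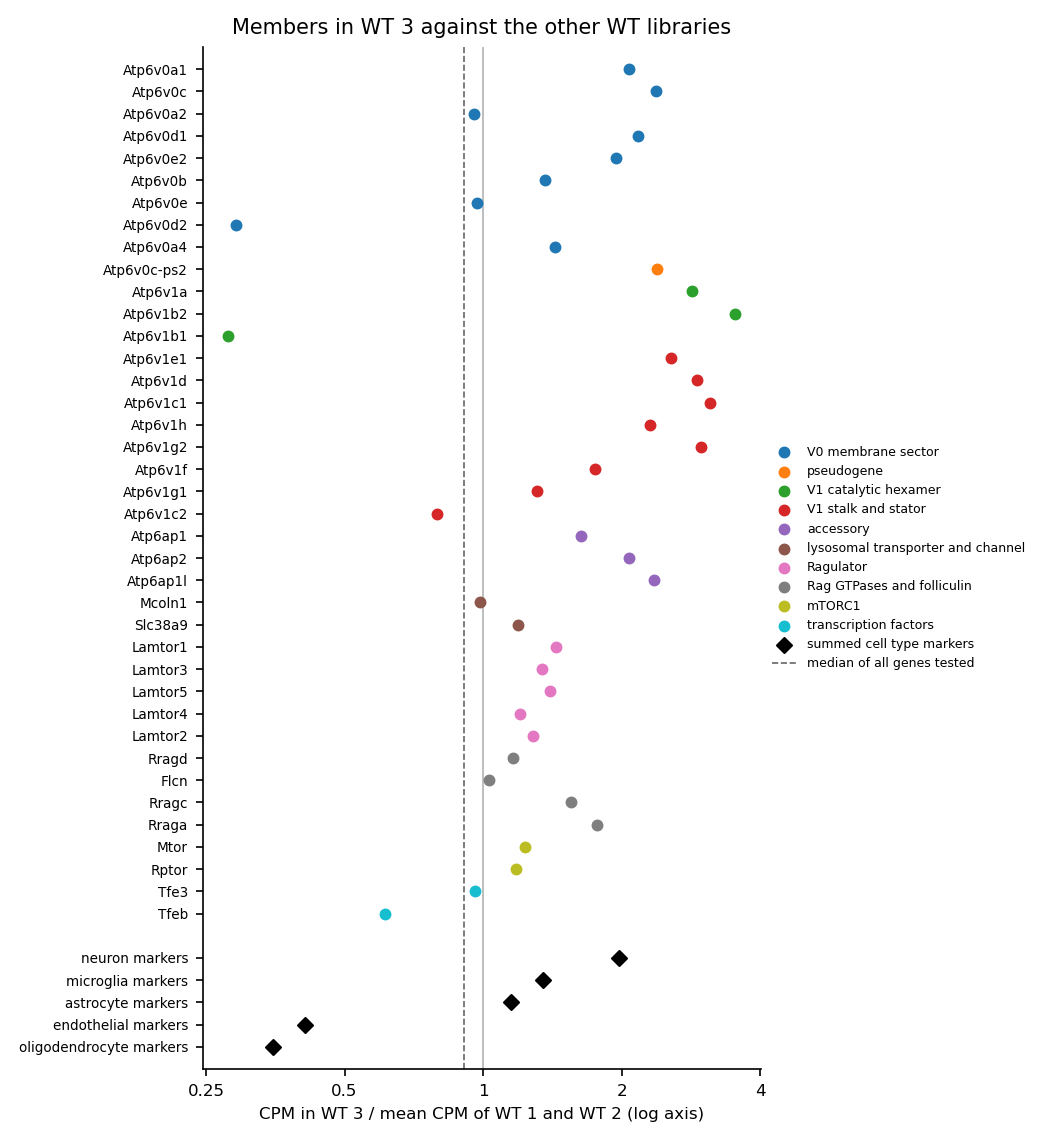
Ratio of the CPM in WT 3 to the mean CPM of WT 1 and 2 (horizontal log axis) for the 39 tested members, coloured by role, and for the summed markers of 5 cell types (diamonds). Core V1 subunits lie at 1.75 to 3.53 except Atp6v1g1, Atp6v1c2 and Atp6v1b1, and the dashed line marks the median of all genes tested (0.91).

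Leaving out WT 3 changed the comparison with WT, and left WT 1 and 2 as the only WT libraries. WT 3 was singled out by its high levels of many of these same members, so their rise without WT 3 follows in part from that choice. Without it, 8 members were higher in APP/PS1 at an adjusted p under 0.05 by edgeR's quasi-likelihood test (Atp6v0c, Atp6v0c-ps2, Atp6v1c1, Atp6v1e1, Atp6v1f, Atp6v1g1, Lamtor1 and Rragc, with the first pair counted from shared reads), against 2.87% of all genes, and 1 was lower (Atp6v1b1), against 1.96%. At an unadjusted p under 0.05, 18 were higher (10.7% of all genes) and 2 lower (10.8%), and the median log2 fold change of the members was 0.34, against −0.06 for all genes. The log2 fold change of Atp6v1c1 moved from −0.02 (SE 0.36) to 0.76 (SE 0.18, adjusted p = 0.0385), that of Atp6v1b2 from −0.09 (SE 0.40) to 0.80 (SE 0.20, adjusted p = 0.0549) and that of Atp6v0c from 0.01 (SE 0.27) to 0.57 (SE 0.13, adjusted p = 0.042). Within library numbers 1 to 6, which hold WT 1 and 2, Atp6v1a was higher in APP/PS1 by 0.44, and within 7 to 10, where WT 3 is the single WT library, it was lower by 0.85 (a log2 difference of −0.85). Without any other single library, at most 1 member passed the adjusted threshold. Of the 20 V1 and V0 subunit genes tested, 9 had a log2 fold change below 0 with all libraries and above 0 without WT 3, and 11 kept their sign. Among the latter, Atp6v1f moved from 0.40 to 0.73 and Atp6v1e1 from 0.02 to 0.64, while Atp6v0e was at 0.55 with and without WT 3. Outside the pump subunits, Tfe3 (0.54 with and 0.53 without WT 3) and Lamtor1 (0.55 and 0.76) were higher in both fits.

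**Figure D3:**
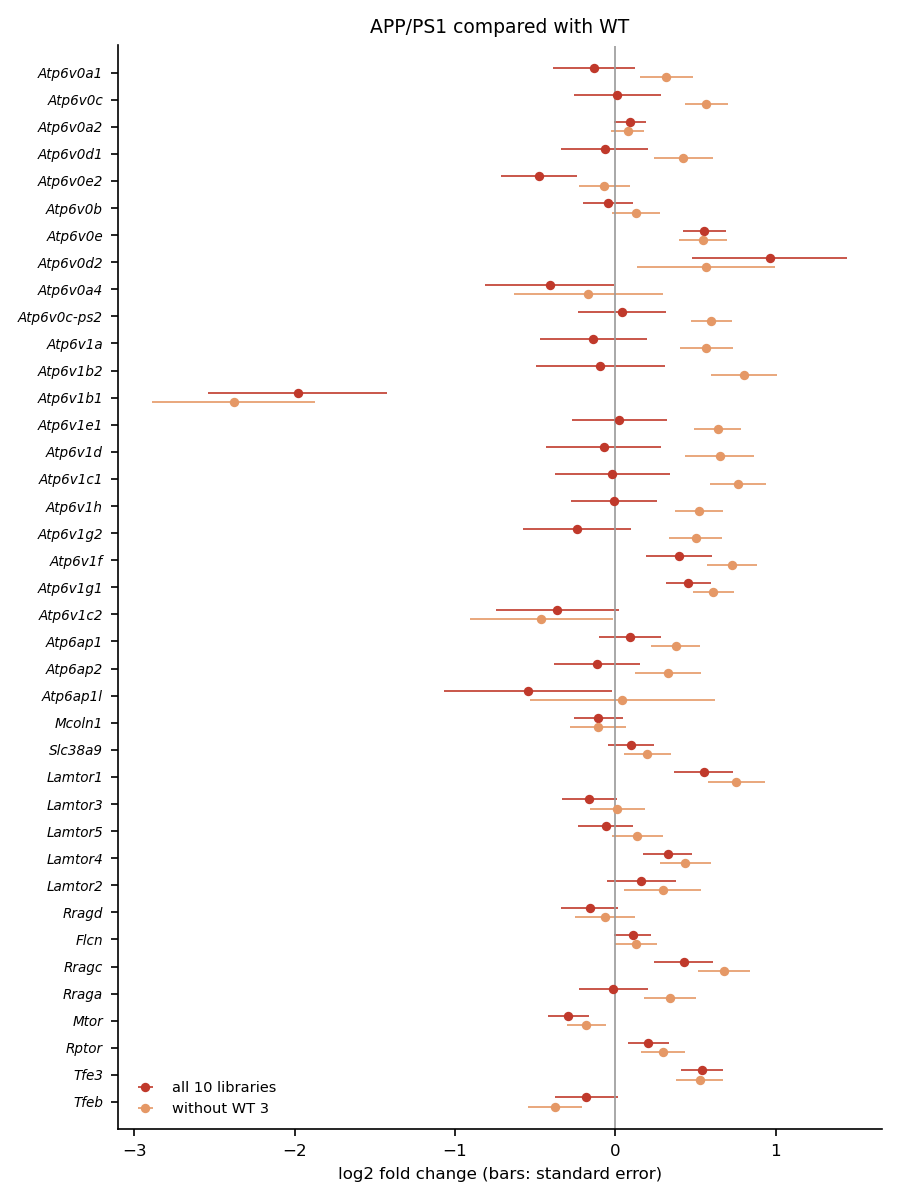
log2 fold change of the 39 tested members in APP/PS1 compared with WT (horizontal axis, bars show the SE) with all 10 libraries (dark) and without WT 3 (light). Atp6v1c1, Atp6v1b2 and Atp6v0c lie at −0.02, −0.09 and 0.01 with all libraries and at 0.76, 0.80 and 0.57 without WT 3, while Atp6v0e and Tfe3 stay in place.

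N-AS-injected APP/PS1 mice were compared with APP/PS1 mice without N-AS. These groups also differed in cell type markers, as given further below. No member passed the adjusted threshold by edgeR's quasi-likelihood test, and the share of all genes that passed was 0.0%, so the count of 0 is not particular to the members. DESeq2 called 0 members as well, and 79 of all genes. At an unadjusted p under 0.05, 2 members were lower with N-AS, Atp6v0e and Lamtor4, against 4.05% of all genes, and 0 were higher, against 4.78%. The median log2 fold change of the members was −0.08, against −0.01 for all genes, and 30 of 39 lay within 0.3 of 0. Groups did not overlap for 10 members, 6 lower and 4 higher, against 12.7% of all genes.

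Atp6v0e was at 13.1, 13 and 13.1 CPM in the 3 N-AS libraries, against 15.4, 17, 20.4 and 19.8 in APP/PS1. All N-AS libraries were below all APP/PS1 libraries and above all WT libraries. The log2 fold change with N-AS was −0.47 (SE 0.13, adjusted p = 0.494). Lamtor4, a small Ragulator subunit, was at 7.51, 7.47 and 7.39 CPM with N-AS and at 11.2, 10.1, 9.15 and 12.1 in APP/PS1. The groups did not overlap, and the log2 fold change was −0.51 (SE 0.15, adjusted p = 0.494) from 72 to 254 reads per library. Both genes kept an unadjusted p under 0.05 when each of the 10 libraries was left out in turn. This comparison shares its APP/PS1 libraries with the comparison with WT, so a rise in the former and a fall here rest on the same 4 libraries.

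The summed microglial markers did not overlap between these groups either (1772 to 2333 CPM with N-AS and 2927 to 3716 in APP/PS1), and APP/PS1+N-AS 3 stood apart from all APP/PS1 libraries in Xist (2.14 against 453 to 579 CPM), in the Y-linked sum (176 against 0.619 to 57.0) and in the choroid plexus sum (10.3 against 701 to 1212). Without APP/PS1+N-AS 3, 3 members were lower at an unadjusted p under 0.05 (Atp6v0e, Lamtor1 and Lamtor4), against 2.5% of all genes, and 1 was higher (Flcn), against 4.21%, and the median of the members was −0.21, against −0.03 for all genes. The part of the microglial markers in the levels of these genes was not tested.

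Groups also did not overlap for 8 members whose unadjusted p was above 0.05. Lamtor1 was at 11.7, 13.9 and 15.9 CPM with N-AS (log2 fold change −0.39, SE 0.18, adjusted p = 0.573) and Rragc at 25.5, 31.6 and 30.4 CPM (−0.38, SE 0.18, adjusted p = 0.597), both below every APP/PS1 library. Atp6v1f and Atp6v0a2 were the other members below all APP/PS1 libraries. Above them lay Mtor at 141, 149 and 148 CPM (0.27, SE 0.13, adjusted p = 0.573), Mcoln1 at 46.1, 42.3 and 39.8 CPM against 27.0 to 39.4 in APP/PS1 (0.33, SE 0.15, adjusted p = 0.571), Flcn at 53.2, 51.5 and 45.7 against 38.8 to 45.0 (0.25, SE 0.12, adjusted p = 0.58) and Atp6v1b1. Folliculin acts on RagC and RagD, and Mcoln1 releases lysosomal calcium.

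Libraries with the same replicate number deviated together in these 2 groups (correlations of 0.278, 0.142 and 0.309 over genes), and the numbers were also used as a block. Unlike-numbered libraries of both groups within library numbers 1 to 6 or 7 to 10 deviated together to a like degree (0.173, 0.197 and 0.32), so the shared deviation is not particular to the replicate number. With the block on the libraries of both groups alone, 5 members were lower with N-AS at an unadjusted p under 0.05 (Atp6v0e, Lamtor1, Lamtor4, Atp6v1f and Rragc), against 6.85% of all genes, and 2 were higher (Mtor and Mcoln1), against 7.88%. Again 0 members passed the adjusted threshold, and the lowest p-value was that of Lamtor1 (log2 fold change −0.40, adjusted p = 0.27). With the block in the model of all 3 groups, 3 members were lower at an unadjusted p under 0.05 (Atp6v0e, Lamtor1 and Lamtor4). The V1 and V0 genes with the highest mean CPM overlapped between the groups. In V1, Atp6v1a was at 79.7, 87.0 and 118 CPM with N-AS and at 90.6, 95.0, 104 and 112 in APP/PS1 (−0.08, SE 0.33), and in V0, Atp6v0a1 was at 225, 238 and 306 against 258, 251, 246 and 275 (−0.01, SE 0.26). APP/PS1+N-AS 3 was the highest of the N-AS libraries for both. Over the roles, median log2 fold changes with N-AS were −0.08 for the catalytic hexamer, −0.17 for the stalk and stator, −0.09 for V0 and −0.16 for the accessory subunits. They were −0.31 for the Ragulator, −0.07 for the Rag GTPases and folliculin, 0.13 for mTORC1, −0.09 for Tfeb and Tfe3 and 0.21 for Slc38a9 and Mcoln1.

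**Figure D4:**
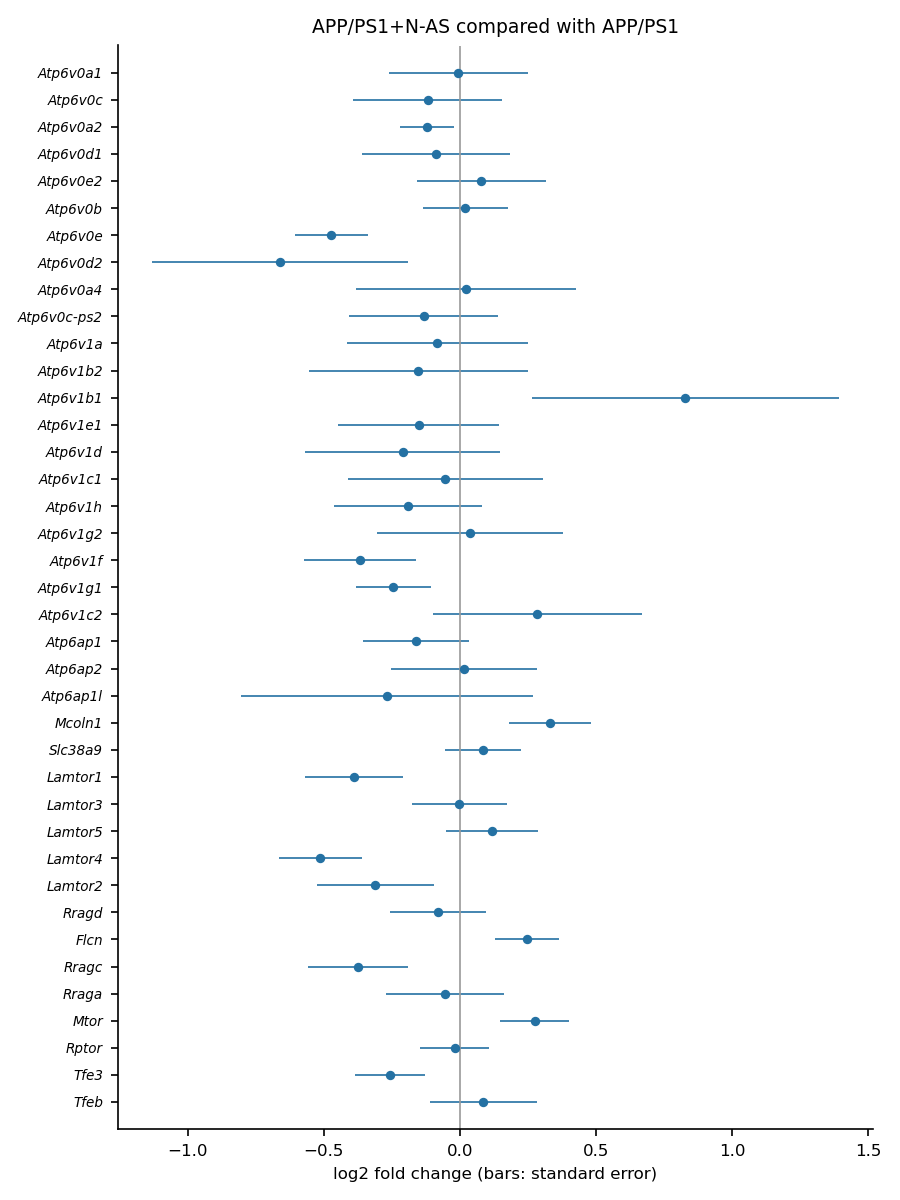
log2 fold change of the 39 tested members in APP/PS1+N-AS compared with APP/PS1 (horizontal axis, bars show the SE). Atp6v0e (−0.47) and Lamtor4 (−0.51) lie furthest below 0 relative to their SE, and Mcoln1 (0.33), Mtor (0.27) and Flcn (0.25) above it.

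The N-AS libraries were set against WT to ask which members still differed from healthy mice. The summed microglial markers did not overlap here either (1772 to 2333 CPM with N-AS and 897 to 1319 in WT). Xist was at 463 and 469 CPM in APP/PS1+N-AS 1 and 2 and at 1.59 to 4.40 in WT. The part of cell composition and sex-linked transcripts in the differences below was not tested. No member passed the adjusted threshold, against 0.187% of all genes, and Flcn was the only member with an unadjusted p under 0.05, against 3.64% of all genes higher. Flcn was at 34.8, 42.8 and 40.1 CPM in WT and at 53.2, 51.5 and 45.7 with N-AS, without overlap, and its log2 fold change was 0.35 (SE 0.12, adjusted p = 0.586). Groups did not overlap for Atp6v0e and Tfe3 as well (3 members, all higher, against 8.81% of all genes), with log2 fold changes of 0.08 (SE 0.14) and 0.28 (SE 0.14, adjusted p = 0.757). The median of the members was −0.09, against −0.04 for all genes. Without WT 3, 9 members were higher at an unadjusted p under 0.05 (5.28% of all genes) and 1 was lower (Atp6v1b1, 6.81% of all genes), 0 passed the adjusted threshold, and the median was 0.27. This shift, too, follows in part from the choice of WT 3 by the same members. Flcn kept an unadjusted p under 0.05 in 7 of the 10 fits that left out a library, and not without WT 1, APP/PS1+N-AS 1 or APP/PS1+N-AS 2.

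Each library also gives a ratio of paralogs, which does not depend on the scaling between libraries. The log2 ratio of Atp6v0e2, an e subunit known from neurons, to Atp6v0e was 1.11, 1.10 and 2.11 in WT and 0.82, 0.76, 0.08 and 0.30 in APP/PS1. All APP/PS1 libraries were below all WT libraries, and the N-AS libraries (0.78, 1.03 and 1.27) overlapped both groups. For Tfeb to Tfe3 the ratio was −0.11, −0.32 and −0.86 in WT and −1.20 to −1.01 in APP/PS1, again without overlap, and for Rragd to Rragc it was 1.30 to 2.15 in WT and 0.86 to 1.17 in APP/PS1. The ratio of Atp6v1g2, the neuronal G subunit, to Atp6v1g1 was 0.67, 1.20 and 2.14 in WT and 0.53 to 1.10 in APP/PS1, so that WT 1 lay within the APP/PS1 range. Ratios of Atp6v0d2 to Atp6v0d1, of Atp6v1c2 to Atp6v1c1 and of Atp6v0a2 to Atp6v0a1 overlapped in all comparisons. Atp6v1b1 to Atp6v1b2 was −7.78 to −6.65 in APP/PS1 and −6.51 to −5.96 with N-AS, from no more than 42 reads of Atp6v1b1 per library. Atp6v0e, Tfe3 and Rragc were named above as higher in APP/PS1 from the same counts, so their ratios are not separate findings. How often other pairs of genes separate in this way was not counted. The part of cell composition in these ratios was not tested.

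**Figure D5:**
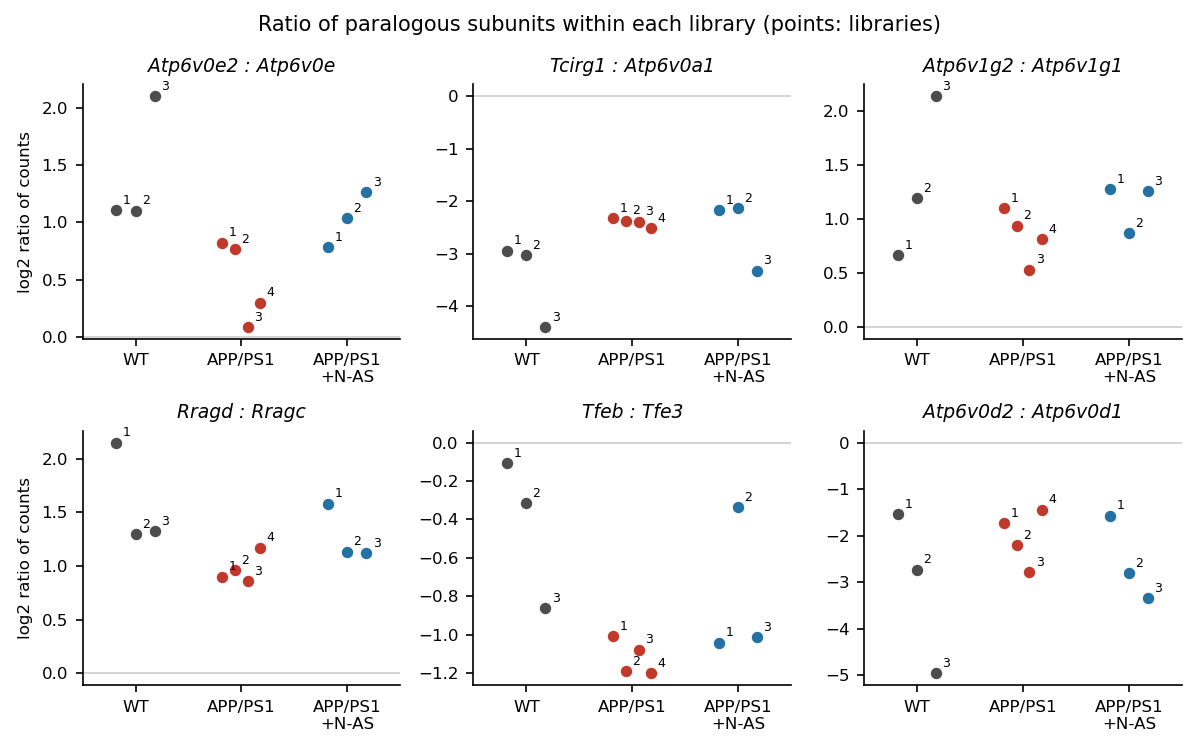
log2 ratio of the counts of 6 pairs of paralogs (vertical axis) in each library of the 3 groups, with points marked by replicate number. APP/PS1 lies below WT for Atp6v0e2 to Atp6v0e, Rragd to Rragc and Tfeb to Tfe3 and above WT for Tcirg1 to Atp6v0a1, and WT 3 is the highest or lowest WT library in every pair shown except Rragd to Rragc.

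The wider pathway was read from the same fit. Of 54 listed genes that are no members (assembly factors of the pump, other MiT/TFE factors, other mTORC1 subunits, GATOR and KICSTOR, amino acid sensors, TSC and Rheb, and lysosomal channels), 51 were tested. In APP/PS1 compared with WT, 2 were higher and 0 lower at an adjusted p under 0.05, against 3.47% of all genes in either direction. Unadjusted p-values under 0.05 were found for 5 genes higher and 4 lower in APP/PS1, against 8.3% and 8.9% of all genes, so that the counts lie near the background. By list, the latter were 1 higher of 12 assembly and other pump genes, 1 higher of 1 MiT/TFE factor, 1 lower of 3 mTORC1 subunits, 1 higher of 3 Rag and folliculin genes, 1 lower of 11 GATOR and KICSTOR genes, 1 lower of 11 sensors and TSC-Rheb genes, and 2 higher and 1 lower of 10 channels and carriers. Tcirg1, the a3 subunit of V0 known from osteoclasts and phagocytes, was at 24.2, 28.0 and 20.4 CPM in WT and at 51.6, 48.6, 46.7 and 47.9 in APP/PS1. All APP/PS1 libraries were well above all WT libraries (log2 fold change 1.01, SE 0.19, adjusted p = 0.018). Its adjusted p was 0.00383 to 0.0643 when each library was left out in turn, and above 0.05 without WT 1 or APP/PS1 4. The symbol of Tcirg1 does not begin with Atp6, so the rule does not hold it, although its product is a subunit of the pump. Its ratio to Atp6v0a1, another a subunit of V0, was −4.40 to −2.94 in WT and −2.52 to −2.32 in APP/PS1 on the log2 scale. The ratio rests on the same counts of Tcirg1, and the part of cell composition in it was not tested. The sum of the microglial markers was also higher in all APP/PS1 than in all WT libraries, as given above, and its part in the rise of Tcirg1 was not tested.

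Mitf, the third MiT/TFE factor tested, was at 17.1, 15.5 and 12.5 CPM in WT, 23, 23.3, 29.7 and 25.1 in APP/PS1 and 17.9, 18.1 and 14.6 with N-AS. It was higher in APP/PS1 than in WT without overlap (log2 fold change 0.76, SE 0.16, adjusted p = 0.0254). Its adjusted p was 0.0238 to 0.0768 when each library was left out in turn, and above 0.05 without WT 2, APP/PS1 3 or APP/PS1 4. With N-AS it was below all APP/PS1 libraries, at −0.58 (SE 0.15, adjusted p = 0.494). In the comparison of N-AS with APP/PS1, 0 of the 51 genes passed the adjusted threshold, and 4 were higher and 1 was lower at an unadjusted p under 0.05, against 4.78% and 4.05% of all genes. After Mitf, the lowest p-value was that of Mlst8, the mTORC1 subunit mLST8 (0.40, SE 0.13, adjusted p = 0.497). Mlst8 was at 11.9, 11.5 and 12.2 CPM with N-AS against 8.05 to 10.1 in APP/PS1, and 11.1 to 12.1 in WT. Compared with WT, 0 genes passed with N-AS, and Tcirg1 (0.89, SE 0.20, adjusted p = 0.182), Nprl3 (−0.36, adjusted p = 0.736) and Tpcn2 (0.45, adjusted p = 0.747) had the lowest p-values. Tcirg1 was at 50.1, 54.0 and 30.5 CPM with N-AS, with APP/PS1+N-AS 3 nearest to WT. Its adjusted p against WT was 0.0133 by DESeq2. In the edgeR quasi-likelihood fits that left out a library, it was 0.0138 to 0.889, and under 0.05 in 1 of 10.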

How the data were processed

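Per the labels and the paper's methods, ribosomal RNA was depleted, stranded libraries were sequenced as read pairs and aligned with TopHat, and the submitters' processing notes name mm10 and edgeR. Versions and the annotation are not given in the sources used here. The authors deposited raw counts per gene symbol for each library, without normalization. The FPKM values and quantile normalization used by the authors for their comparisons were not used here. The 43 symbols that stand on several lines (103 in all) were collapsed to their sum.

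After filterByExpr, 18727 genes remained, and edgeR 4.0.16 (R 4.3.3) provided TMM factors and the test (glmQLFit and glmQLFTest, 1 model of 3 groups, Benjamini-Hochberg adjustment over all genes tested, threshold 0.05). Over all genes the dispersion was 0.0752 (biological coefficient of variation 27.4%). Total counts of 8805804 to 19432075 limit the precision of genes with few reads, and reads without molecular identifiers carry more error than counting alone. Nothing says that libraries of a group came from separate preparations beyond the pooled pairs of mice, so p-values measure the spread between these libraries. On simulated data with the design of APP/PS1 against WT, 28.3% of 99 genes changed 2-fold were recovered among 18706 genes. Of 99 genes changed 4-fold, 93.9% were recovered (3 others called). With the design of N-AS against APP/PS1, the shares were 32.3% and 94.9% (11 others called). Recovery for the members in the real libraries, where WT 3 stood apart and marker sums differed between groups, was not tested.

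Members and lists were chosen with earlier results of these data known. Fold change, SE and p-value are given for members with an adjusted p or an unadjusted p under 0.05 and values for the member of a role with the highest mean CPM. Of other pathway genes, those with an adjusted p under 0.05 are named, or otherwise the 3 with the lowest p. A gene that this rule names is not reported here. Members whose groups did not overlap were named after their values were seen. Older symbols were matched for 4 genes (Gatsl3, Gatsl2, B630005N14Rik and Tldc1 for Castor1, Castor2, Bmt2 and Meak7). Exon lengths and overlaps came from GENCODE M21, and promoter windows from RefSeq (GRCm38.p6).

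Replicate numbers come from the labels. After removal of group means, the correlation of same-numbered libraries over genes was 0.278, 0.142 and 0.309 for N-AS and APP/PS1, −0.485, 0.441 and −0.00962 for APP/PS1 and WT, and −0.136, 0.348 and 0.24 for N-AS and WT, so only the former groups had every pair above 0.1. Unlike-numbered libraries of those groups within numbers 1 to 6 or 7 to 10 gave 0.173, 0.197 and 0.32, as high as the same-numbered ones. Results were recomputed with DESeq2 1.42.0, quantile normalization with voom (limma 3.58.1), library totals alone, upper-quartile factors, no filter beyond 1 read, the replicate block, library numbers 1 to 6 against 7 to 10 as a covariate, a fit of only the 2 groups compared, and each library left out in turn. The block on the N-AS and APP/PS1 libraries alone was added after the data were seen.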

Additional observations from a re-analysis of the deposited data

Results flagged for a closer look

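The level of a member in 1 of the 4 APP/PS1 libraries lay far from the others in 2 of 39 groups of 4 libraries tested by Dixon's criterion, and chance alone flags about 1 group in 20. Atp6v1c1, the C subunit that joins the stator to the pump, was at 93.5 CPM in APP/PS1 4 and at 74.9 to 76.8 CPM in the others. Rptor, the scaffold of mTORC1, was at 76.1 CPM in APP/PS1 2 and at 63.8 to 65.7 CPM in the others. Groups of 3 libraries, among them WT with WT 3, were not tested in this way.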

How the results depend on the processing

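No member named for an unadjusted p under 0.05 with all libraries reversed its direction. Of the 20 V1 and V0 subunit genes, 9 that were not so named went from below to above 0 in APP/PS1 against WT without WT 3. In APP/PS1 against WT, the count of members with an adjusted p under 0.05 was 1. It was 3 with DESeq2 (Atp6v0e, Tfe3 and Atp6v1b1), 2 with library numbers as a covariate, and 0 with limma and quantile normalization, with total counts, without a filter, with the replicate block or in a fit of only these groups. Atp6v0e kept its adjusted p under 0.05 in 3 of 18 alternatives (DESeq2, library numbers as a covariate, and without APP/PS1 1). Leaving out single libraries gave 0 to 9, with 9 without WT 3, 1 without APP/PS1 1 and 0 without any of the others. The count at an unadjusted p under 0.05 (7) was 5 to 20 over the libraries left out, and the median log2 fold change (−0.02) was −0.19 to 0.34, with 20 and 0.34 without WT 3. In N-AS against APP/PS1, the count at an unadjusted p under 0.05 (2) was 4 with limma, 4 with upper-quartile factors, 5 with library numbers as a covariate, 8 in a fit of only these groups and 7 with the replicate block there. It was 2 to 7 over the libraries left out, with 7 without WT 1 or WT 3, 5 without APP/PS1 1 and 4 without APP/PS1+N-AS 3. With the replicate block, the adjusted p of Mitf in APP/PS1 against WT was 0.0893 and that of Tcirg1 0.0248. No alternative gave a member past the adjusted threshold in either comparison with N-AS. In N-AS against WT, the count at an unadjusted p under 0.05 (1) was 0 with total counts and 0 to 10 over the libraries left out, with 10 without WT 3, 0 without APP/PS1+N-AS 1 or 2 and 2 without APP/PS1+N-AS 3, and the median (−0.09) was −0.18 to 0.27, with 0.27 without WT 3. The cause was not tested. Over all genes, an adjusted p under 0.05 was reached by 649 genes in APP/PS1 against WT (1345 with DESeq2, 326 with the replicate block, 1055 with library numbers as a covariate, 410 in a fit of only these groups). In N-AS against WT it was reached by 35 (188 with DESeq2, 20 with limma, 5 with the block, 64 with library numbers, 2 in a fit of only these groups), and in N-AS against APP/PS1 by 0 (79 with DESeq2, 1653 at an unadjusted p under 0.05). Depth limits Atp6v1b1, Atp6ap1l, Atp6v0a4 and Atp6v1c2, whose libraries hold few reads.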
